A study of Mus musculus with 16 samples.

Results

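Epidermis exposed to ultraviolet B (UVB) for 25 weeks was compared with epidermis exposed for 2 weeks. The comparison uses 4 of the 16 RNA sequencing libraries of the series, 2 per duration, chosen by their labels alone. The same contrast in epidermis of unexposed mice, on 4 further libraries, was set beside it to show what changed over these weeks without UVB. All mice were female SKH-1, a hairless strain used in skin cancer research. Exposed mice were irradiated with UVB at 60 mJ/cm2 in 2 sessions a week, and control mice received no agent. No transgene or deletion is named for any group. The age of the mice is not given in the sources used here. Within the exposed mice, the duration of exposure, the age of the mice and any difference in handling between the weeks cannot be told apart. Whether both libraries of a group are from different mice is not stated in the labels. The p-values therefore reflect the scatter of the libraries alone, which may be technical. Libraries are named below by the replicate number 0 or 1 of their titles.

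The 4 UVB libraries held 5657967 to 6238016 deduplicated read counts. Among the controls, replicate 1 of week 2 was shallower, with 2905165. The tissue label was checked against markers. Summed over 8 general keratinocyte genes, the UVB libraries held 4886 to 5222 CPM (read counts scaled to a common library size; sums over a list use the library total), against 3701 and 4124 in the whole skin libraries of the series. Skeletal muscle markers summed to between 71.6 and 147 in the UVB libraries and to 4841 and 9384 in whole skin. Removal of duplicate reads puts a ceiling on the counts of abundant genes, so differences of keratins and other abundant transcripts can be understated.

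UVB is absorbed by DNA and gives rise to pyrimidine dimers, to which keratinocytes respond with the p53 programme of cell cycle arrest, repair and apoptosis. Nucleic acid sensing in the same cells can start the type I interferon response, in which factors such as STAT2 and IRF9 switch on a set of antiviral genes. With repeated exposure the epidermis thickens, immune cells enter it, proteases remodel the matrix below it and tumors arise.

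Among genes that passed edgeR's test, change between week 2 and week 25 of exposure was mostly upward. Interferon response genes, matrix proteases, collagens, complement C1q and genes of antigen presentation were among the genes that rose. The p53 targets Eda2r and Ccng1 were among those that fell. With edgeR's quasi-likelihood test, 609 of 13478 genes passed an adjusted p of 0.05 (Benjamini-Hochberg over all genes tested), which is 4.52% of them. Of these, 544 rose (4.04%) and 65 fell (0.482%). The median log2 change was 2.02 among the rises and -0.88 among the falls, and 489 rises but 24 falls were at least 2-fold. The split depended on the fit. DESeq2's Wald test called 851 higher and 307 lower, and edgeR on the 4 UVB libraries alone called 1271 and 641. Of all genes tested, 32.2% were higher in both week 25 libraries than in both week 2 libraries, and 30.8% were lower. The calls rested on having 2 libraries per arm. With one UVB library left out, edgeR called 0 genes without either week 2 library, 8 without week 25 replicate 0 and 26 without week 25 replicate 1, at unadjusted p under 0.05 for 1259 to 1677 genes upward and 390 to 678 downward. DESeq2's Wald test on the same subsets called 169 to 428.

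**Figure D1:**
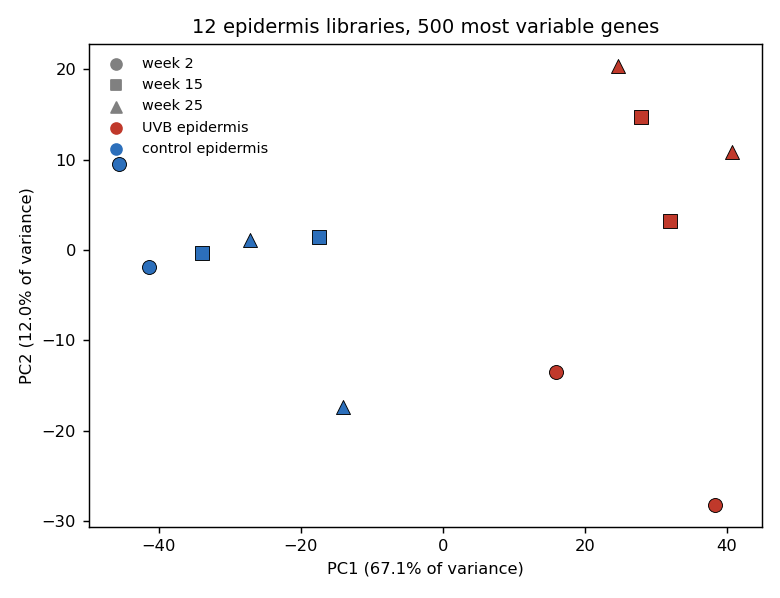
Principal components of log2 CPM in the 12 epidermis libraries, computed on the 500 most variable genes. Each point is one library, red for UVB and blue for control, and its shape gives the week. PC1 (67.1% of variance) separates UVB from control libraries, and on PC2 (12.0%) both UVB week 2 libraries (-13.5 and -28.2) lie below the UVB libraries of weeks 15 and 25.

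Of 36 tested genes of the interferon response 21 rose and 0 fell, with a median log2 change of 2.27 where the median of all genes was 0.01. All 36 were higher in both week 25 libraries than in both week 2 libraries, an order that 32.2% of all genes tested also had. In control epidermis edgeR called 0 of them, with 3 higher and 1 lower at unadjusted p under 0.05, and DESeq2 called 2 higher and 1 lower. Their median there was 0.40, leaving out Ifit2, which had no count in either control group. The difference between the UVB and the control change passed the test for 7 members, all more positive under UVB. All 21 rises had covered at least 50% of their log2 change by week 15, as had 450 of the 544 rises among all genes tested. With one UVB library left out, edgeR called 0 members without either week 2 library, 3 without week 25 replicate 0 and 2 without week 25 replicate 1, and their lowest and highest list medians were 1.98 and 3.25.

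The 2'-5' oligoadenylate synthetases, which sense double-stranded RNA and activate RNase L, gave the smallest p-values of the list. Oas3 stood at 2.30 and 1.14 CPM (from here scaled by TMM for single genes) at week 2, at 25.5 and 40.7 at week 15, and at 40.8 and 55.5 at week 25. In controls Oas3 stayed between 1.61 and 4.13 CPM at weeks 2 and 25. Its log2 change was 4.80 ± 0.50 (standard error, edgeR adjusted p = 0.00831) under UVB and 1.32 ± 0.59 in controls (adjusted p = 0.129), and the difference of 3.48 passed the test (adjusted p = 0.0302). Oas2 rose from 4.25 and 1.63 CPM to 65.1 and 103 CPM, a log2 change of 4.84 ± 0.65 (edgeR adjusted p = 0.0148), while controls held 5.02 and 2.91 CPM at week 2 and 10.7 and 2.66 CPM at week 25. In both genes every week 25 UVB library lay above every week 2 library and every control.

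Stat2, a subunit of the factor that type I interferon activates, was more abundant throughout and changed less. It rose from 62.9 and 54.5 CPM at week 2 to 132 and 197 CPM at week 25, a log2 change of 1.49 ± 0.23 (edgeR adjusted p = 0.0175). Control epidermis held 76.8 and 95.1 CPM of Stat2 at week 2, above both UVB libraries of that week, and 120 and 86.1 CPM at week 25, below both. The difference between the changes was 1.21 (edgeR adjusted p = 0.0441). Over the list, 11 of 36 genes stood below control in both UVB libraries at week 2, against 30.3% of all genes. At week 25, 30 of 36 stood above control in both UVB libraries, against 35.6% of all genes, and 0 stood below.

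Ifi44, whose product is a cytoplasmic protein induced by interferon, had 3 counts over both week 2 libraries and 334 over both week 25 libraries. The ratio of their levels was 102, with an exact 95% counting interval from 34.5 to 496 that covers counting error only. In controls Ifi44 had 3 counts at week 2 and 12 at week 25, and the difference between the changes did not pass (edgeR adjusted p = 0.145). Rsad2 encodes viperin, an antiviral enzyme that makes a chain-terminating nucleotide. It rose from 0.531 and 0.490 CPM to 18.1 and 25.2 CPM, a log2 change of 5.35 ± 1.26 (edgeR adjusted p = 0.0406). Its control libraries spread widely, from 4.98 to 12.4 CPM at week 2 and from 1.62 to 28.2 CPM at week 25, and the difference between the changes did not pass (edgeR adjusted p = 0.0934). Control replicate 0 of week 25 held more than replicate 1 of 32 of the 36 interferon genes. Ifit1, which binds foreign RNA caps, rose from 2.83 and 1.31 CPM to 40.8 and 64.2 CPM (log2 change 4.66 ± 0.94, edgeR adjusted p = 0.0272). In controls Ifit1 held 7.54 and 3.32 CPM at week 2 and 18.1 and 1.62 CPM at week 25. The difference between its changes did not pass (edgeR adjusted p = 0.0811). Apol9b, an interferon-inducible apolipoprotein L gene outside the list, rose from 0.886 and 0.653 CPM to 22.1 and 29.3 CPM (log2 change 5.03 ± 0.65, edgeR adjusted p = 0.0122). Its near-identical neighbour Apol9a may share reads with it.

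**Figure D2:**
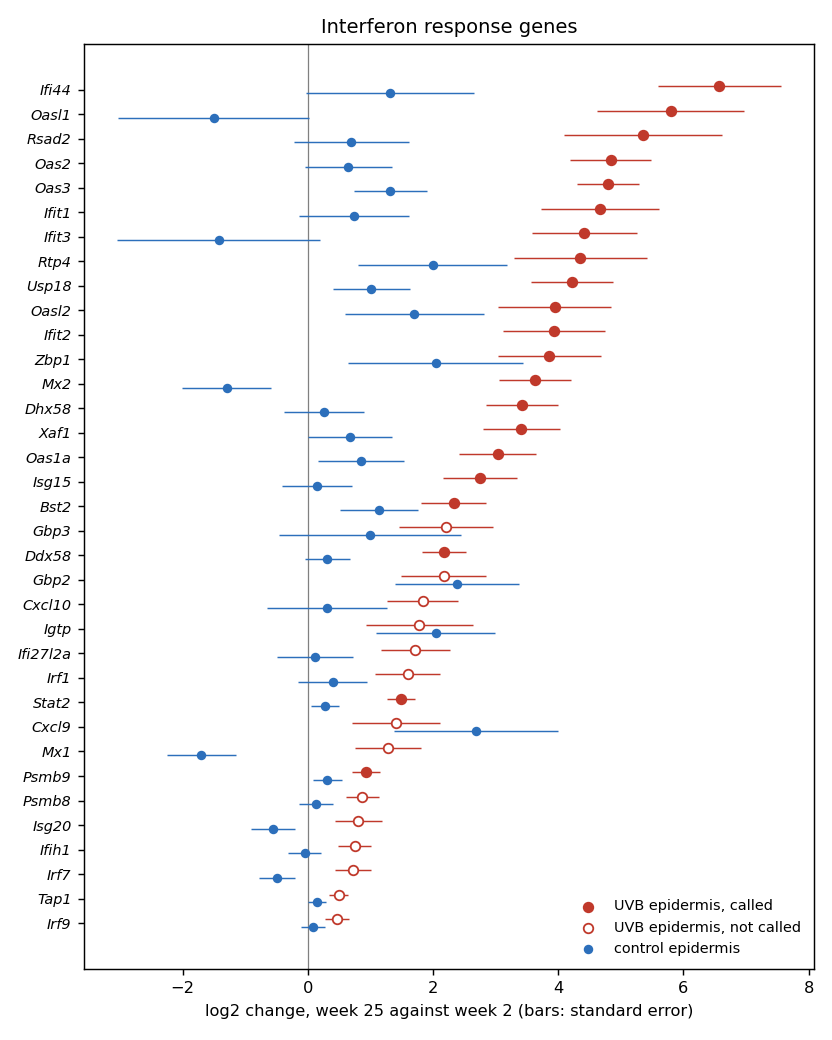
Log2 change from week 2 to week 25 of 35 of the 36 tested interferon response genes, with its standard error, in UVB epidermis (red, filled where called) and control epidermis (blue). A control point is left out where a control group had no count. The UVB values run from 0.46 for Irf9 to 6.57 for Ifi44 and all lie above 0, while no control value was called.

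Promoter sequences are shown for called interferon genes because they rose together and because the motif that interferon-activated factors bind is known. The RefSeq promoter table (GRCm38.p6) held a sequence for 27 of the 36 genes. Its 250 bases before each start were searched on both strands for GAAANNGAAA, the core of the interferon-stimulated response element, with overlapping matches counted. It was found for 12 of these 27 genes, and for 3.07% of the 10217 tested genes with a sequence. Since fewer than 80% of the list had a sequence, no comparison of these shares was made. The 4 called genes with a match and the largest log2 change are printed with matches in capitals, read along the gene's own strand and ending upstream of the start. TTTCNNTTTC is the same motif on the other strand.
Rsad2, chr12:26456523-26456612 (- strand): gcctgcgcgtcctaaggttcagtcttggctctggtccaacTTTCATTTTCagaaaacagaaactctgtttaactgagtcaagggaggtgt
Oas3, chr5:120777685-120777774 (- strand): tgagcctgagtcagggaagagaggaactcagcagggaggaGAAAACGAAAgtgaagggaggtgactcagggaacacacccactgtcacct
Ifit1, chr19:34640764-34640853 (+ strand): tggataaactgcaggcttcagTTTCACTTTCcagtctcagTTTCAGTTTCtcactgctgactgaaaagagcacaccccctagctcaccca
Ifit3, chr19:34583367-34583456 (+ strand): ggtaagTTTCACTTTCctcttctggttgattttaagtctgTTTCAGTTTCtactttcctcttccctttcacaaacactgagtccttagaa
In Ifit1 and Ifit3 the stretch holds 2 matches each, and in Rsad2 and Oas3 it holds 1. A match describes these letters and does not show that a factor binds there.

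Genes of matrix-degrading enzymes rose, some of them with week 15 levels near those of week 2. Of 18 tested genes of matrix remodelling 6 rose and 0 fell, with a median log2 change of 1.85. In control epidermis edgeR called 2 members lower and 0 higher, and the difference passed for 6 members, all more positive under UVB. The collagenase gene Mmp13 held 1.77 and 1.63 CPM at week 2, 1.77 and 2.94 CPM at week 15, and 68.2 and 30.0 CPM at week 25. Controls held 2.51 and 1.66 CPM of Mmp13 at week 2 and 0.326 and 0.738 CPM at week 25. Its log2 change was 4.84 ± 0.66 under UVB (edgeR adjusted p = 0.0155), and it differed from that in controls by 6.82 (adjusted p = 0.0125). Mmp3, encoding stromelysin 1, also remained at 1.47 and 0.735 CPM at week 15 and reached 28.9 and 8.22 CPM at week 25 (log2 change 4.29 ± 0.79, edgeR adjusted p = 0.0226). Mmp9, encoding gelatinase B, rose from 3.37 and 4.73 CPM to 72.1 and 14.9 CPM (log2 change 3.42 ± 0.62, edgeR adjusted p = 0.0225). In controls Mmp9 went from 18.3 and 22.4 CPM to 5.37 and 5.32 CPM, with a log2 change of -1.91 that missed the threshold (edgeR adjusted p = 0.0569), and the difference of 5.33 passed (adjusted p = 0.0114). Mmp14, the membrane-bound protease that activates other metalloproteinases, rose more evenly, from 9.57 and 11.4 CPM to 44.3 and 43.1 CPM (log2 change 2.05 ± 0.30, edgeR adjusted p = 0.0159). The stromelysin gene Mmp10 and the inhibitor gene Timp3 completed the 6. Replicate 0 of week 25 was the higher for 16 of the 18 genes. Without it edgeR called 0 of them and the log2 change of Mmp9 was 1.87. Without either week 2 library it also called 0, and without week 25 replicate 1 it called 3.

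The promoters of the neighbouring genes Mmp3, Mmp10 and Mmp13 on chromosome 9 are shown because all 3 rose while their week 15 levels stayed near those of week 2, and because AP-1 sites are known in this family. TGANTCA, the AP-1 motif, reads alike on both strands. Within 250 bases of the start it was found for 5 of the 12 tested matrix genes with a promoter sequence. Of the 5 called genes among these 12, 3 held it. It was present for 6.19% of the 10217 tested genes with a sequence.
Mmp13, chr9:7272439-7272513 (+ strand): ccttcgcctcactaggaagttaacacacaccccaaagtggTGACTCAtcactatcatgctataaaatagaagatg
Mmp3, chr9:7445736-7445821 (+ strand): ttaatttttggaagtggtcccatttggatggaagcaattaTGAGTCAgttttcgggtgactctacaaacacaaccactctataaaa
Mmp10, chr9:7502239-7502325 (+ strand): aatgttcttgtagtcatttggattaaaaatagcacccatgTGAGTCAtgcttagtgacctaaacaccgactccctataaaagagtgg
Each stretch holds 1 match, in capitals, 28 bases before the start in Mmp13, 39 in Mmp3 and 56 in Mmp10. Only 12 of the 18 tested matrix genes had a sequence, under 80%, so no comparison of shares was made here either.

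Fibroblast markers moved with the proteases, and unequally between the libraries. Of 15 tested markers 6 rose and 0 fell, with a median log2 change of 3.31. Col3a1, a fibrillar collagen of the dermis, stood at 1.77 and 2.45 CPM at week 2 and at 52.1 and 10.6 CPM at week 25 (log2 change 3.88 ± 0.82, edgeR adjusted p = 0.0295). Col1a2 rose from 1.06 and 1.96 CPM to 44.7 and 11.1 CPM (log2 change 4.18 ± 0.77, edgeR adjusted p = 0.0225). Replicate 0 of week 25 was the higher one for both genes, and for 14 of the 15 markers. At week 15 neither collagen had a mean above that of week 2, as Col3a1 held 1.18 and 1.32 CPM and Col1a2 1.47 and 0.735 CPM. Sparc, a collagen-binding protein, rose from 2.30 and 6.04 CPM to 64.5 and 19.1 CPM (edgeR adjusted p = 0.0272). Vim, which many mesenchymal and immune cells express, was the most abundant marker per length, at 60.8 and 40.3 CPM at week 2 and 139 and 117 CPM at week 25 (edgeR adjusted p = 0.0603). Dcn, expressed by dermal fibroblasts, held 2.30 and 3.43 CPM at week 2 and 5.21 and 3.19 CPM at week 25 (edgeR adjusted p = 0.579).

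The summed level of the fibroblast list was 210 and 195 CPM at week 2, 239 and 263 at week 15, and 536 and 302 at week 25. Control epidermis held 166 and 195 at week 2 and 133 and 119 at week 25, and whole skin held 1443 and 2487. No tested marker was at 0 in either UVB group. In controls edgeR called 3 markers lower and 0 higher, with a median of -2.42. The difference between the changes passed for 9 markers, all more positive under UVB. Without UVB week 25 replicate 0 the median of the fibroblast markers was 2.19, and edgeR called 0 of them, as it did without either week 2 library. What dermis carried into the epidermal sheets adds to these values was not tested. In whole tissue, more cells of a type and more RNA per cell cannot be told apart, here and for the other cell types.

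**Figure D3:**
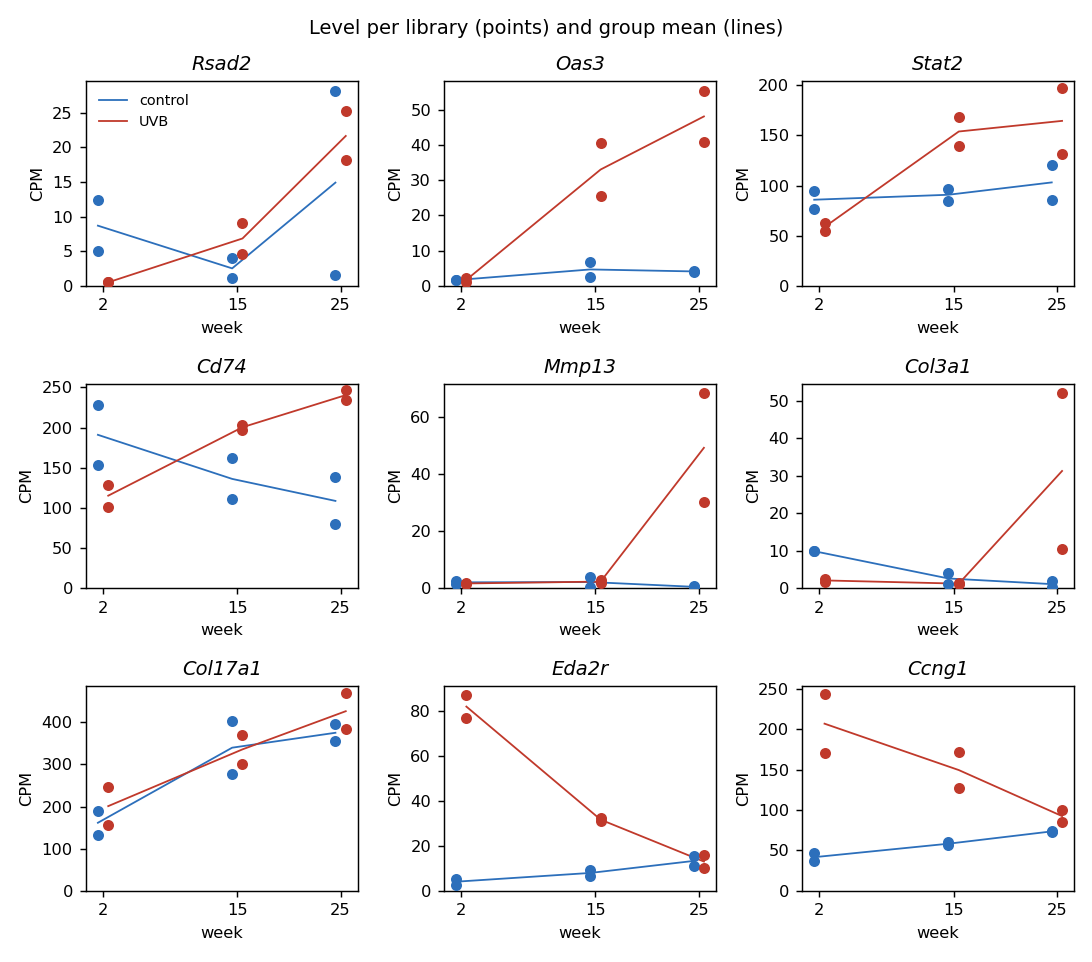
CPM of 9 genes by week in UVB (red) and control (blue) epidermis, each point a library and each line the mean of 2. Oas3 and Stat2 stood above their week 2 levels at week 15, Mmp13 and Col3a1 were near theirs, and Eda2r and Ccng1 fell from week 2 to week 25 under UVB.

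Macrophage and monocyte markers rose for 7 of 14 tested genes and fell for 0, with a median log2 change of 2.20. Csf1r, the receptor through which colony stimulating factor keeps macrophages and Langerhans cells alive, held 16.5 and 14.4 CPM at week 2, 39.3 and 36.0 CPM at week 15 and 74.7 and 56.5 CPM at week 25 (log2 change 2.09 ± 0.27, edgeR adjusted p = 0.0122). The difference from controls, where Csf1r stayed between 10.8 and 14.9 CPM, was 2.22 (adjusted p = 0.0138). C1qa, a chain of complement C1q made by macrophages, rose from 2.30 and 1.31 CPM to 17.7 and 12.6 CPM (log2 change 3.06 ± 0.69, edgeR adjusted p = 0.0363). C1qc had 2 counts at week 2 and 80 at week 25, a ratio of 36.6 with an exact 95% counting interval from 9.80 to 307. Summed, the list held 291 and 308 CPM at week 2 and 478 and 397 at week 25, against 177 and 188 in week 25 controls. With one UVB library left out edgeR called 2 of the 14 without week 25 replicate 1 and 0 otherwise, and the median was 1.87 without week 25 replicate 0.

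Markers of Langerhans and dendritic cells, the antigen-presenting cells of skin, rose for 6 of 16 tested genes and fell for 0, with a median log2 change of 1.34. Most of the 6 serve the loading and display of peptides on MHC class II. H2-DMa, which helps load peptides, rose from 17.4 and 13.7 CPM to 64.7 and 50.8 CPM (log2 change 1.89 ± 0.38, edgeR adjusted p = 0.0272), and Ciita, the master regulator of MHC class II, from 6.02 and 6.04 CPM to 15.6 and 14.8 CPM (log2 change 1.33 ± 0.28, edgeR adjusted p = 0.0303). H2-Eb1, H2-DMb1, Itgax and Mfge8 were the other rises. Cd207, encoding langerin, which marks Langerhans cells, held 24.6 and 26.6 CPM at week 2 and 77.7 and 60.7 CPM at week 25, and missed the threshold (edgeR adjusted p = 0.0758). Epcam, the most abundant of the list per length, stood at 306 and 276 CPM and at 239 and 288 CPM (edgeR adjusted p = 0.779). Control epidermis went the other way: edgeR called 4 markers lower and 0 higher with a median of -0.93, and the difference passed for 8, all more positive under UVB. Summed, the list held 821 and 739 CPM in UVB epidermis at week 2 and 1585 and 1472 at week 25, and 877 and 1282 in control epidermis at week 2 and 712 and 515 at week 25. With any one UVB library left out edgeR called 0 of the 16, with medians from 1.27 to 1.40.

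Of 16 tested T and NK cell markers 4 rose and 0 fell, with a median log2 change of 2.11. The median was the same with Gzma, which had no count at week 2, set at the bound that 3 counts allow. In controls edgeR called 0 of the 16. The control median was 0.66, and 0.11 with that bound applied to markers without a count in a control group. The difference between the arms passed for 1 marker, more positive under UVB. Ctla4, an inhibitory receptor of activated and regulatory T cells, rose from 0.886 and 0.979 CPM to 8.83 and 9.05 CPM (log2 change 3.23 ± 0.76, edgeR adjusted p = 0.0411). In controls Ctla4 stood at 8.43 and 23.7 CPM at week 2 and at 8.79 and 2.66 CPM at week 25, so the week 2 UVB libraries lay below all 4 controls. Lck, the kinase of the T cell receptor, Cd2 and Klrk1 were the other rises. With any one UVB library left out edgeR called 0 of the 16, and it called 2 with all 16 libraries of the series in 1 fit. With only the 4 UVB libraries fitted, the median was 1.32 and 7 were called. The T cell receptor subunit Cd3g held 6.55 and 5.55 CPM at week 2 and 13.3 and 13.8 CPM at week 25 (edgeR adjusted p = 0.121), against 15.1 and 28.2 CPM and 26.9 and 15.2 CPM in controls. Cd5, the most abundant marker per length, stood at 25.2 and 17.3 CPM and at 22.1 and 22.1 CPM (edgeR adjusted p = 0.93). Among neutrophil markers Mmp9 rose and Trem1 fell, from 9.92 and 6.20 CPM to 0.868 and 0.671 CPM (log2 change -3.34 ± 0.57, edgeR adjusted p = 0.0265). Trem1, an activating receptor of neutrophils and monocytes, had no count in control epidermis at either week.

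A few chemokine genes and the chitinase-like gene Chil4 rose. Of 20 tested inflammatory mediators 2 rose and 0 fell. Ccl7, which attracts monocytes, rose from 1.95 and 4.57 CPM to 27.2 and 40.1 CPM (log2 change 3.35 ± 0.47, edgeR adjusted p = 0.0159), and had 4 counts over the week 2 controls and 1 over the week 25 controls. Tslp, an alarm cytokine of keratinocytes, rose from 5.49 and 12.2 CPM to 46.3 and 23.6 CPM (log2 change 1.97 ± 0.49, edgeR adjusted p = 0.0477). Controls held 13.3 and 8.72 CPM of Tslp at week 2 and 15.1 and 10.5 CPM at week 25. Its call was lost with library totals alone, with a replicate block and with all 16 libraries in 1 fit. Of 12 genes of type 2 inflammation 3 rose and 0 fell. Chil4 held 8.68 and 29.1 CPM at week 2 and 284 and 368 CPM at week 25 (log2 change 4.10 ± 0.83, edgeR adjusted p = 0.0272). In controls it held 93.3 and 4.57 CPM at week 2, a wide spread, and 0.326 and 0.443 CPM at week 25. Close paralogs of Chil4 may share its reads. Ccl11, which attracts eosinophils, rose from 1.42 and 1.80 CPM to 13.0 and 20.8 CPM (edgeR adjusted p = 0.0307). Il1rl1, an interleukin receptor of type 2 immunity, rose from 4 counts to 43 (edgeR adjusted p = 0.0389). Controls had 4 counts of Ccl11 and 1 of Il1rl1 at week 2, and 0 of both at week 25. The difference between the arms passed for Ccl7 and Chil4 (edgeR adjusted p = 0.0395 and 0.00831). It did not pass for Tslp, Ccl11 or Il1rl1 (adjusted p = 0.126, 0.0566 and 0.144).

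Some genes of the basal layer rose in both arms. Of 13 tested basal keratinocyte genes 3 rose under UVB (median log2 change 1.10) and 5 in controls (median 1.07), with 0 falls in either arm. The difference passed for 0 of them in edgeR, with 0 at unadjusted p under 0.05 and 0 in DESeq2. Krt15, a keratin of resting basal cells, rose from 44.6 and 68.5 CPM to 144 and 127 CPM under UVB (log2 change 1.26 ± 0.21, edgeR adjusted p = 0.0199) and from 92.0 and 83.0 CPM to 208 and 161 CPM in controls (1.07 ± 0.21, adjusted p = 0.0152). The difference between these changes was 0.19 (edgeR adjusted p = 0.713). Col17a1, the hemidesmosomal collagen, rose from 156 and 246 CPM to 469 and 383 CPM (log2 change 1.08 ± 0.26, edgeR adjusted p = 0.0451), and in controls by 1.21 ± 0.27. Lamb3, a laminin chain of the basement membrane, rose from 25.5 and 41.0 CPM to 123 and 66.9 CPM (edgeR adjusted p = 0.0376), and its control log2 change of 0.83 did not pass (adjusted p = 0.116). The general keratinocyte gene Krt14 held 518 and 508 CPM at week 2 and 454 and 531 CPM at week 25 (edgeR adjusted p = 0.851).

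Of the stress and signalling genes that rose under UVB, some also rose in controls. Of 21 immediate early and AP-1 genes 4 rose and 0 fell under UVB, and 3 rose in controls. Fosb, a subunit of AP-1, rose from 7.26 and 8.81 CPM to 90.4 and 50.0 CPM under UVB (log2 change 3.12 ± 0.59, edgeR adjusted p = 0.0231). In controls Fosb rose from 5.20 and 12.9 CPM to 85.9 and 33.1 CPM (log2 change 2.84, adjusted p = 0.0199), and the difference of 0.28 did not pass (adjusted p = 0.852). Atf3 rose from 4.43 and 5.22 CPM to 78.7 and 31.7 CPM (edgeR adjusted p = 0.0294), and Nr4a1 from 2.48 and 3.10 CPM to 63.4 and 33.4 CPM (adjusted p = 0.039). In controls the changes of Atf3 (log2 1.97) and Nr4a1 (3.73) missed the threshold (edgeR adjusted p = 0.0819 and 0.0685). Nr4a2 had 3 counts at week 2 and 37 at week 25, a ratio of 11.3 with a 95% counting interval from 3.57 to 57.2. In controls Nr4a2 also rose, from 0 counts at week 2 to 14 at week 25 (edgeR adjusted p = 0.0412). Its difference between the arms did not pass (edgeR adjusted p = 0.444), and the difference passed for 0 of the 21 genes. These genes can also respond to the handling of tissue. Fos itself held 162 and 90.9 CPM at week 2 and 233 and 237 CPM at week 25 (edgeR adjusted p = 0.178). Of 22 genes of WNT, hedgehog and NOTCH signalling 3 rose and 0 fell: Wnt3, Wnt16 and the secreted WNT inhibitor Sfrp1, which went from 23.2 and 26.6 CPM to 81.0 and 70.9 CPM (log2 change 1.61 ± 0.33, edgeR adjusted p = 0.0278). Wnt3 also rose in controls (edgeR adjusted p = 0.0454), where the log2 changes of Sfrp1 (0.22) and Wnt16 (-0.60) were not called. Sprr3 was the single rise among 35 genes of stress keratins and alarm proteins, with 2 counts at week 2 and 30 at week 25. Slc2a3 was that among 26 hypoxia and glycolysis genes, with 4 counts and 31. Ftl1 was the single rise among 28 NRF2 and antioxidant genes. The adipocyte marker Fabp4 and the mural cell marker Acta2 each rose alone among 5 tested markers. Of all genes tested, 4.04% rose. In controls Fabp4 fell (log2 change -1.96, edgeR adjusted p = 0.0446). Sprr3, Ftl1, Slc2a3 and Acta2 were not called there, with log2 changes from -1.12 for Acta2 to 0.62 for Slc2a3.

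**Figure D4:**
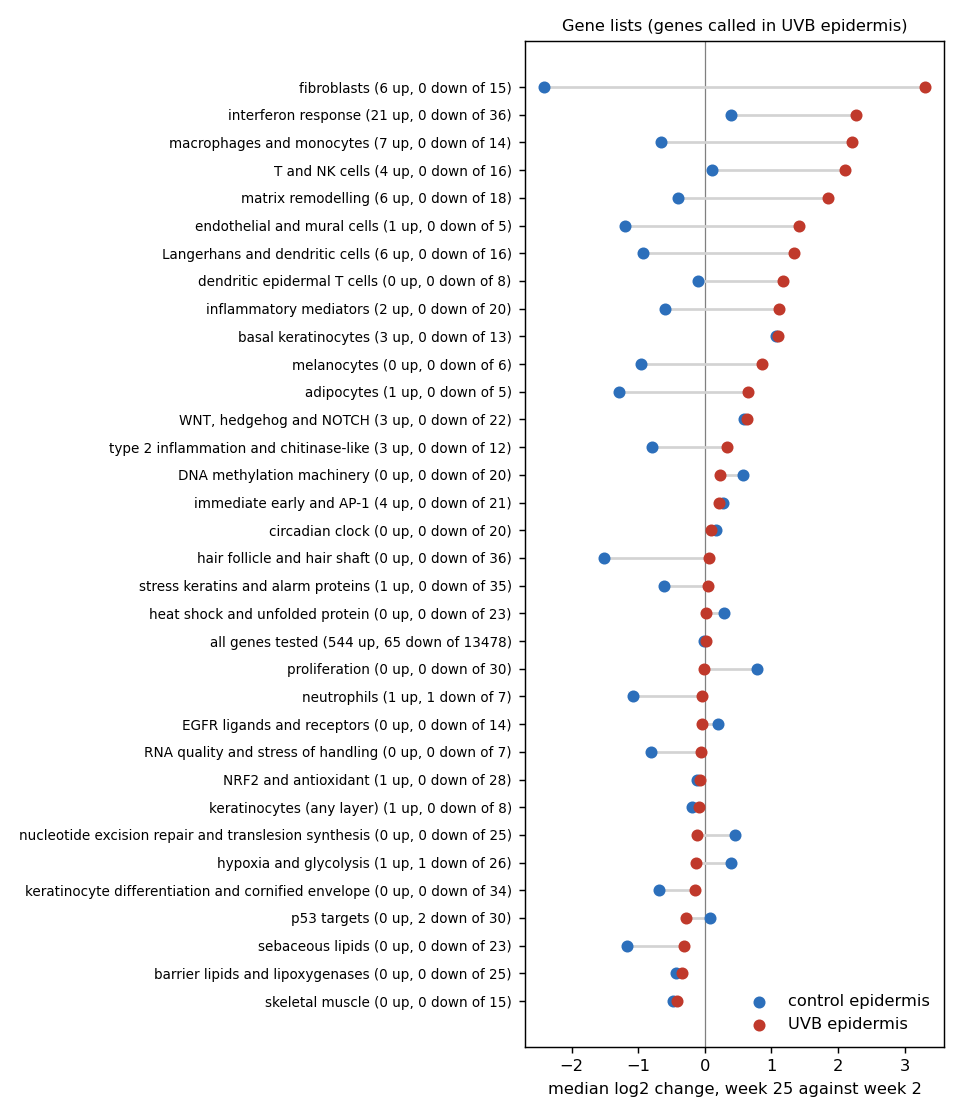
Median log2 change from week 2 to week 25 of the tested genes of each list with at least 5 tested genes, in UVB (red) and control (blue) epidermis, with genes at 0 counts in a group set at the bound that 3 counts allow. Labels give the genes called in UVB epidermis. Fibroblast markers have the highest UVB median, 3.31, and a control median of -2.42. Basal keratinocyte genes stand at 1.10 and 1.07.

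Among the 12 largest rises (mean CPM of 5 or more), 6 belong to the interferon and matrix lists, and Apol9b is given with them. Of the others, Cdkn2a, which encodes the cell cycle inhibitor p16 and the p53 activator ARF, rose from 0.354 and 0.979 CPM to 37.9 and 39.2 CPM, with 12.4 and 28.5 CPM at week 15 (log2 change 5.79 ± 0.77, edgeR adjusted p = 0.0148). In controls it held 1.26 and 0.415 CPM at week 2 and 3.42 and 5.32 CPM at week 25, and the difference between the changes did not pass (edgeR adjusted p = 0.106). Slc7a2, a transporter of cationic amino acids, had 2 counts at week 2 and 127 at week 25, a ratio of 58.1 with a 95% counting interval from 15.7 to 485. Cdh13, encoding T-cadherin, rose from 0.177 and 0.816 CPM to 19.2 and 11.6 CPM (edgeR adjusted p = 0.0192), and the complement component C2 from 0.531 and 0.163 CPM to 8.39 and 11.2 CPM (adjusted p = 0.0218). Controls held 3.95 and 9.55 CPM of Cdh13 at week 2 and 11.2 and 9.30 CPM at week 25, all above both week 2 UVB libraries. The difference between the changes passed for Cdh13 (edgeR adjusted p = 0.0381) but not for C2 (adjusted p = 0.121) or Slc7a2 (adjusted p = 0.0728). Tmem117, a membrane protein, was uneven at week 25, with 3.33 and 26.7 CPM against 0.531 and 0.326 CPM at week 2 (edgeR adjusted p = 0.043). Its difference from the control change did not pass (edgeR adjusted p = 0.0602).

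The 2 falls among 30 tested p53 targets started from a week 2 level above controls. The median of the list was -0.28, and edgeR called 0 of its genes higher, with 2 higher at unadjusted p under 0.05 and 0 in DESeq2. At unadjusted p under 0.05, 6 were lower, and DESeq2 called 4 lower. Eda2r, a death receptor gene on the X chromosome, held 77.1 and 87.0 CPM at week 2, 30.9 and 32.5 CPM at week 15 and 10.3 and 15.8 CPM at week 25 (log2 change -2.66 ± 0.31, edgeR adjusted p = 0.00847). In controls Eda2r rose from 2.69 and 5.40 CPM to 11.2 and 15.4 CPM (log2 change 1.84 ± 0.38, adjusted p = 0.0165), so that UVB and control libraries overlapped at week 25. Ccng1, encoding cyclin G1, fell from 171 and 243 CPM to 100 and 85.0 CPM (log2 change -1.16 ± 0.20, edgeR adjusted p = 0.021) and rose in controls from 46.3 and 36.9 CPM to 73.7 and 73.4 CPM (adjusted p = 0.0348). The differences of -4.50 for Eda2r and -1.97 for Ccng1 passed the test (edgeR adjusted p = 0.00495 and 0.0095). Other targets changed less: Cdkn1a, the p53-dependent cell cycle inhibitor, held 354 and 364 CPM at week 2 and 278 and 304 CPM at week 25 (adjusted p = 0.232), and Mdm2, the p53 ubiquitin ligase, 154 and 171 CPM and 118 and 148 CPM (adjusted p = 0.328).

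Among genes with a mean CPM of 5 or more, the other largest falls lay outside the pathway lists. Ddit4l, an inhibitor of mTOR signalling, fell from 9.21 and 20.4 CPM to 1.59 and 1.68 CPM (log2 change -3.17 ± 0.55, edgeR adjusted p = 0.021). Zfp365, a gene of genome stability, fell from 68.2 and 73.1 CPM to 20.8 and 23.6 CPM (-1.67 ± 0.20, adjusted p = 0.00847), with 13.0 to 16.3 CPM in controls. Stac2 fell in both arms, from 53.1 and 56.0 CPM to 13.2 and 14.8 CPM under UVB (-1.97 ± 0.24, adjusted p = 0.00847) and from 39.5 and 33.6 CPM to 14.5 and 11.5 CPM in controls (adjusted p = 0.00759). Nav3, a microtubule-binding protein, fell under UVB from 24.6 and 18.8 CPM to 4.92 and 7.38 CPM (edgeR adjusted p = 0.0237) and rose in controls from 5.56 and 3.74 CPM to 30.0 and 30.4 CPM (adjusted p = 0.00534). Itgb8, an integrin that activates transforming growth factor beta, fell from 38.6 and 40.1 CPM to 13.3 and 11.4 CPM (adjusted p = 0.0247) and rose in controls (adjusted p = 0.0251). Skint2, of the keratinocyte family that selects epidermal gamma-delta T cells, fell from 84.9 and 66.3 CPM to 33.9 and 22.8 CPM (adjusted p = 0.0249). Taf9b, Clcn5, Adgrf2, Prickle2 and Lmbrd2 completed the 12, with log2 changes from -1.80 for Taf9b to -1.21 for Lmbrd2. In controls Clcn5, Adgrf2 and Lmbrd2 rose (edgeR adjusted p = 0.018, 0.0384 and 0.0266), while Taf9b and Prickle2 were not called. The difference between the arms passed for these 5 genes and for Zfp365, Nav3 and Itgb8. It did not pass for Ddit4l, Stac2 or Skint2 (edgeR adjusted p = 0.54, 0.371 and 0.14). The control log2 changes of Ddit4l (-1.82) and Skint2 (-0.47) were not called (adjusted p = 0.215 and 0.23).

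Several programmes of the epidermis gave no call under UVB. Of 30 proliferation genes edgeR called 0, with 1 lower at unadjusted p under 0.05, DESeq2 called 0, and the median log2 change was -0.01. Mki67, a marker of cycling cells, held 80.2 and 109 CPM at week 2 and 100 and 86.2 CPM at week 25 (log2 change -0.03 ± 0.26, edgeR adjusted p = 0.967), with 170 and 206 CPM at week 15. Control epidermis lay below at both weeks, with 21.7 and 22.8 CPM and 55.2 and 54.3 CPM, and rose (adjusted p = 0.0217). Of the 30 proliferation genes edgeR called 5 higher and 0 lower in controls, with a median log2 change of 0.78. The median difference between the arms was -0.91, and the difference passed for 1 gene, more negative under UVB. Of 34 genes of keratinocyte differentiation edgeR called 0, with 2 lower at unadjusted p under 0.05, and DESeq2 called 2 lower. In controls edgeR called 2 of these genes lower and 1 higher, with a median of -0.69. Of 25 genes of barrier lipids edgeR called 0, with 5 lower at unadjusted p under 0.05, and DESeq2 called 3 lower. Their median was -0.34, and 20 of the 25 were lower in both week 25 libraries than in both week 2 libraries, against 30.8% of all genes tested. In controls the median of the barrier lipid genes was -0.43, with 4 called lower by edgeR and 7 by DESeq2, and the median difference between the arms was 0.11. Pnpla1, which makes the acylceramides of the barrier, held 443 and 398 CPM at week 2 and 236 and 281 CPM at week 25 (log2 change -0.70 ± 0.20, edgeR adjusted p = 0.0682). Nucleotide excision repair, DNA methylation, EGFR, circadian clock, sebaceous, hair follicle and heat shock genes had 0 UVB calls in edgeR. Between 1 and 4 genes per list were at unadjusted p under 0.05, and DESeq2 called between 0 and 2. In controls edgeR called 8 heat shock, 6 repair, 5 DNA methylation, 5 clock and 4 EGFR genes higher. It called 7 sebaceous, 7 hair follicle and 1 repair gene lower. Of all genes tested, 8.47% rose and 5.24% fell in controls. The difference passed as more negative under UVB for 4 heat shock, 4 EGFR, 3 repair, 3 clock, 2 sebaceous and 1 DNA methylation gene. It passed as more positive for 3 hair follicle genes. Of 7 genes of RNA quality and handling edgeR called 0 in UVB epidermis, with 0 at unadjusted p under 0.05 and 0 in DESeq2. In control epidermis it called 1 of the 7 lower, with 6 lower at unadjusted p under 0.05 and 6 in DESeq2, and a median log2 change of -0.80. Summed, the list held 2022 and 3628 CPM in control epidermis at week 2 and 1643 and 1681 at week 25. The 3628 belongs to the shallow replicate 1 of week 2, whose weight in the control changes of this list was not tested. Hypoxia and glycolysis genes gave 1 rise, the glucose transporter gene Slc2a3, and 1 fall, Ankrd37, among 26.

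Unexposed epidermis over the same weeks shared few calls with exposed epidermis. There edgeR called 1848 genes (13.7%), 1142 higher (8.47%) and 706 lower (5.24%). The 544 UVB rises included 33 that rose in controls and 24 that fell in controls, and the 65 UVB falls included 18 that rose in controls and 2 that fell. The 33 shared rises were 6.07% of the UVB rises and 2.89% of the control rises. Across the 13478 genes the log2 changes of the 2 arms had a Pearson correlation of -0.03 and a Spearman correlation of 0.04, given as a description since genes are not independent. The largest control rises and their control log2 changes were Per2 (3.77), the clock repressor, Rfx2 (3.76), Tnfsf18 (3.73), Zbtb16 (3.61) and Slc5a3 (2.93), and none of the 5 was called under UVB. The largest control falls were Chil4, Dcn, Apba2, Adig and Crisp1. The control change moved with exon length, from a median log2 of -0.57 for genes of up to 1000 bases to 0.30 above 4000 bases, where the UVB medians were 0.00 and 0.01. Its part in the control calls was not tested. With one control library left out edgeR called 4554 genes (without week 2 replicate 0), 369 (week 2 replicate 1), 252 (week 25 replicate 0) and 144 (week 25 replicate 1), and 1 gene when only the 4 control libraries were fitted.

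The change itself differed between the arms for 1067 genes (7.92%) in edgeR, more positive under UVB for 449 (3.33%) and more negative for 618 (4.59%). With library totals in place of TMM scaling the split was 378 and 338, and the median UVB change of all genes moved from 0.01 to 0.13. The most positive differences were those of Chil4, Col3a1, Mmp13, Col1a2, Ccl7 and Mmp9. The most negative were those of Eda2r, Nav3, Zbed6, Rfx2, Nrip1 and Cbl. Zbed6, which encodes a DNA-binding protein and lies inside another gene whose reads it may share, fell from 62.2 and 66.4 CPM to 27.6 and 38.4 CPM under UVB (edgeR adjusted p = 0.0414) and rose from 20.3 and 11.2 CPM to 103 and 115 CPM in controls (adjusted p = 0.00213). For Rfx2 the UVB arm held 25.9 and 49.5 CPM at week 2 and 44.0 and 38.9 CPM at week 25 (edgeR adjusted p = 0.862), and the control arm held 11.5 and 9.13 CPM and then 152 and 133 CPM.

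**Figure D5:**
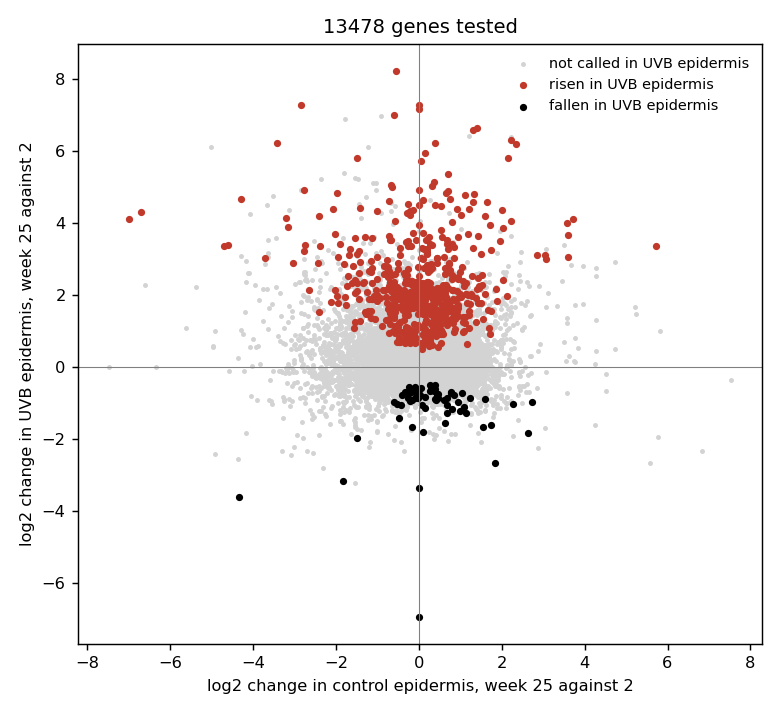
Log2 change from week 2 to week 25 in UVB epidermis against that in control epidermis, one point per tested gene (13478), red for the 544 genes that rose and black for the 65 that fell under UVB. The rises spread on both sides of 0 on the control axis, with 33 called higher and 24 called lower there.

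Week 15 levels of the called genes were set beside those of weeks 2 and 25. The week 15 mean lay between those of weeks 2 and 25 for 494 of the 544 rises and 58 of the 65 falls. At least 50% of the log2 change was present at week 15 for 450 rises and 50 falls, and the median share was 71.9% for rises and 63.0% for falls. Both differences are taken from the same week 2 libraries that entered the calls, so a deviation of those libraries moves both alike, and the shares are a description with no test. By list, all 21 interferon rises and all 6 Langerhans and dendritic rises had covered 50% by then, as had 2 of the 7 macrophage rises, 2 of the 6 matrix rises and 0 of the 6 fibroblast rises.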

How the data were processed

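RNA was sequenced from mouse epidermis, and the authors deposited a table of 24421 genes with whole-number read counts. Per the submitters' processing notes the tools were HISAT2, Picard, featureCounts and DESeq2 with mm10. The sources used here give no versions, annotation release, strand setting or handling of multiply mapping reads. Per the file headers, the deposited counts were made from alignments with duplicates removed, which limits abundant genes to about 2 reads counted per base of exon.

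Counts of the 12 epidermis libraries in 6 groups were fitted together with edgeR 4.0.16 (R 4.3.3), after filterByExpr (minimum count 10, total 15) and TMM scaling, which left 13478 genes. Quasi-likelihood F tests gave the UVB change, the control change and their difference, with Benjamini-Hochberg adjustment over all genes and a threshold of 0.05. Fold changes used a prior count of 0.125. DESeq2 1.42.0 was an alternative. Intervals of ratios are exact at 95%, and a count of 0 was bounded at 3 counts over the group. In simulated UVB libraries of 13348 genes the fit called 39 of 68 genes changed 2-fold, 61 of 66 changed 4-fold and 15 of 13148 unchanged genes. The changed genes were drawn from those with a mean of 5 CPM or more.

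Named genes were the 12 largest rises and falls whose mean CPM was 5 or more and whose arms did not overlap, 5 of each for controls, 6 in each direction for the difference, up to 4 called genes per pathway list by p, and the most abundant marker per length. A few genes that this rule or a list holds are not reported here by name, though list counts, medians and sums include them. Others, given as examples of a list, were chosen after their values were seen. The members and the 36 gene lists were chosen with earlier results of these data known.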

Additional observations from a re-analysis of the deposited data

Results flagged for a closer look

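The change from week 2 to week 25 differed between UVB and control epidermis for 1067 genes in edgeR's test of the difference itself, and the named genes with the largest differences were set apart for that reason. More positive under UVB, on the log2 scale, were Chil4 by 11.1, Col3a1 by 7.03, Mmp13 by 6.82, Col1a2 by 6.60, Ccl7 by 5.74 and Mmp9 by 5.33. The control counts behind some of these were few: Chil4 had 5 over both week 25 controls, Mmp13 7, Col3a1 14 and Ccl7 1.

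More negative under UVB were Eda2r at -4.50, Nav3 at -4.46, Zbed6 at -3.69, Rfx2 at -3.62, Nrip1 at -3.47 and Cbl at -3.36.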

How the results depend on the processing

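The UVB calls, 609 in edgeR, were 1158 with DESeq2, 1128 without the filter on low counts and 1912 with only the libraries of the contrast, and 0 to 26 with one library left out. DESeq2 kept 509 of the 544 rises and 64 of the 65 falls. The control calls, 1848, were 3030 with DESeq2, 2808 without the filter, 864 with all 16 libraries in 1 fit, 1 with only the libraries of the contrast, and 144 to 4554 with one library left out. The genes that differed between the arms, 1067, were 1758 with DESeq2, 1612 without the filter, 517 with all 16 libraries in 1 fit, and 65 (without UVB week 2 replicate 1) to 3446 (without control week 2 replicate 0) with one library left out. With a replicate block the counts were 470, 1502 and 907, and 1 T and NK cell marker was called in place of 4. Same-numbered libraries deviated from their group means with correlations from -0.18 to 0.27 over 15 pairs of groups, so the numbers were not taken to pair samples. No named gene changed direction, and 202 of 526 alternative values for named genes lost the call while 324 kept it. An exact permutation test of 2 against 2 libraries cannot go below p = 0.333. In the simulation, which kept these library sizes and 2 libraries per group, 2-fold changes were often missed. It did not vary depth or the number of libraries.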

Other observations

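Most called genes belonged to no list: 474 of the 544 rises and 61 of the 65 falls. The genes named here were chosen after their values were seen. Igfbp3, which binds insulin-like growth factors, rose from 2.66 and 6.04 CPM at week 2 to 122 and 90.5 CPM at week 25, with 16.3 and 19.7 CPM at week 15 (log2 change 4.59 ± 0.48, edgeR adjusted p = 0.00831). Samd9l, an interferon-inducible gene, rose from 3.72 and 4.41 CPM to 47.2 and 53.8 CPM (edgeR adjusted p = 0.00847). Fcgbp, a mucin-like secreted protein, rose from 156 and 157 CPM to 542 and 528 CPM (edgeR adjusted p = 0.00847). Col7a1, the collagen of anchoring fibrils, rose from 54.9 and 81.0 CPM to 248 and 282 CPM (log2 change 1.96 ± 0.32, edgeR adjusted p = 0.0175).

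The X chromosome held 12 of the 65 falls (18.5%), 7 of the 544 rises (1.29%) and 399 of the 13478 genes tested (2.96%). This is a description with no test.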
